A study of Mus musculus with 6 samples.

Results

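PD-1 and its partners are followed here through 4 genes, taken from the count table by their symbols: Pdcd1, which encodes the receptor PD-1, and Cd274 (PD-L1), Pdcd1lg2 (PD-L2) and Cd80. All 4 of the 4 genes were found among the 40879 of the table, and all 4 passed the filter on low counts that left 13360 genes for testing. The cells were CD8 T cells from tumours of MC38-hPD-L1, a mouse colon carcinoma line that carries human PD-L1, taken on day 12 from C57BL/6N mice. Proximity labelling with a deep-red photocatalyst, driven by light, had put biotin on cells near the tumour cells. Flow sorting gave 3 Biotin+ libraries (cells that carried biotin and are described as tumour-neighbouring) and 3 Biotin- libraries (cells that did not, described as tumour-distal), with poly-A RNA sequenced from each. All 6 libraries come from tumours with human PD-L1, so no group lacks it. The promoter of the human gene, whether the tumour cells keep mouse Cd274, the clonality of the line and any pooling of animals are left unstated in the labels. Human PD-L1 transcripts were not analysed here, and whether reads of them were counted as mouse Cd274 was not tested.

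PD-1 is an inhibitory receptor that T cells raise after antigen recognition. When PD-L1 or PD-L2 binds it, phosphatases recruited to its tail, SHP-2 above all, dampen signals of the T cell receptor and of CD28. PD-L1 is widely inducible by interferon gamma, also on T cells, whereas PD-L2 is found mainly on dendritic cells, macrophages and some activated lymphocytes. CD80 is no ligand of PD-1: it is a ligand of CD28 and CTLA-4, and it can bind PD-L1 on the same cell and so keep PD-L1 from PD-1.

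In these libraries Pdcd1 and Pdcd1lg2 rose in Biotin+ cells, by 3.20-fold and 2.31-fold. Cd274, with a fold of 1.04, and Cd80, with a fold of 2.03, did not pass the test. The test was edgeR's quasi-likelihood test on the counts with Benjamini-Hochberg adjustment over all tested genes and a threshold of 0.05. It called 2 of the 4 genes higher and 0 lower, where 1.53% of all tested genes were called higher and 6.72% lower. Levels below are CPM (each count relative to its TMM-scaled library total), and log2 fold changes are Biotin+ minus Biotin-.

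The libraries held 16440614 to 19640693 counts in Biotin+ against 16423106 to 19035864 counts in Biotin-. Each of 15 CD8 T cell identity genes was counted in every library. Cd8a averaged 1226 ± 63.6 CPM in Biotin+ against 653 ± 189 CPM in Biotin- (SD over 3 libraries), and Cd3e 350.3 ± 64.3 CPM in Biotin+ against 179 ± 44.3 CPM in Biotin-. The CD4 T cell markers Cd4, Foxp3 and Cd40lg together took 0.000134% to 0.000475% of the counts in Biotin+ against 0.000341% to 0.000961% in Biotin-. Of the identity genes 5 were called higher and 0 lower (12 and 0 with the replicate number as a block, 0 and 0 without Biotin- replicate 1 or without Biotin- replicate 3), with a median log2 fold change of 0.69, against 0.06 for all tested genes. Over all tested genes the block called 5.60% higher and 12.0% lower. The list took 0.863% to 0.926% of the counts in Biotin+ against 0.513% to 0.678% in Biotin-. Fibroblast and endothelial markers, of which 7 of 11 tested were called lower, took 0.0247% to 0.0489% in Biotin+ against 0.158% to 0.301% in Biotin-. In bulk samples fewer cells of a type and less RNA per cell cannot be told apart. Whether each replicate was a separate animal is not stated in the labels, and p-values then describe only the spread among these samples.

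Cd274 and Pdcd1lg2 lie close together on chromosome 19, while Pdcd1 is on chromosome 1. The 250 bases before the start of each of these 3 genes are shown because Pdcd1 and Pdcd1lg2 rose and Cd274, which lies between them in level per kilobase, did not pass. They are RefSeq sequences on GRCm38.p6, 5′ to 3′ on the strand of the gene, and capitals mark the letters GGAAA or their reverse complement, the core that NFAT factors bind.
Pdcd1 promoter, chr1:94052554-94052803, minus strand: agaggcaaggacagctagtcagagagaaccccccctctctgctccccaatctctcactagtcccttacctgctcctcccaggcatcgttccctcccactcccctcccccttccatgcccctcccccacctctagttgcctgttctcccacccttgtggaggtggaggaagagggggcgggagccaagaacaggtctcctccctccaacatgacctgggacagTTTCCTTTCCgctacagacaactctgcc
Cd274 promoter, chr19:29367188-29367437, plus strand: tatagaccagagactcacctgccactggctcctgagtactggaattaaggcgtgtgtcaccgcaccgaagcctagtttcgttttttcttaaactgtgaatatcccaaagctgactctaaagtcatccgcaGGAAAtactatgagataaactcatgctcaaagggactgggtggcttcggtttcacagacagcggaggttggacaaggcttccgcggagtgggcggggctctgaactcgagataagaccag
Pdcd1lg2 promoter, chr19:29410669-29410918, plus strand: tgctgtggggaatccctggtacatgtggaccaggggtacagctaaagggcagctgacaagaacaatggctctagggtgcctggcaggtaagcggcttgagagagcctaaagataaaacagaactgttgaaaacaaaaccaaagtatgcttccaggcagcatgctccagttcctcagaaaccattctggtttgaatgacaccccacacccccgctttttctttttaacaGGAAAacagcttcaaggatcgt
Both strands were searched. Pdcd1 held 2 matches, which start at -28 and -23 and lie end to end without overlap. Cd274 held 1, at -120, and Pdcd1lg2 held 1, at -22, where -1 is the last base before the gene's start. Cd80, on chromosome 16, held 0. The core is common: 55.6% of 32851 promoter windows of the same length held it. None of the 4 windows held the letters TTCNNNGAA of the interferon gamma activated site (7.02% of windows), the core of the interferon response element (2.98%), TGACTCA of AP-1 (4.46%), the NF-kappaB consensus (0.140%) or TATAAA (12.4%). A match is a description of these letters and not a bound site.

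Pdcd1 stood at 716, 1855 and 1322 CPM in Biotin+ replicates 1, 2 and 3, against 263, 635 and 318 CPM in Biotin- replicates 1, 2 and 3. Every Biotin+ library was above every Biotin- library, though Biotin+ replicate 1 and Biotin- replicate 2 were close. Replicate 1 was the lowest library of both groups and replicate 2 the highest. The log2 fold change was 1.68 ± 0.40 (SE, adjusted p = 0.0299 in edgeR), and the 95% interval of the fold ran from 1.72 to 5.94. Between libraries of the same number the difference in log2 CPM was 1.45, 1.55 and 2.05, all in the same direction. The receptor transcript ranked high in both groups: 98.4% to 99.2% of the tested genes were below it in the Biotin+ libraries, and 95.7% to 98.4% in the Biotin- libraries. The call was lost without Biotin+ replicate 2 (edgeR adjusted p = 0.104), without Biotin- replicate 1 (0.103) or without Biotin- replicate 3 (0.139), with log2 fold changes of 1.31 to 1.53. Those 3 fits called 0.420%, 0.380% and 0.168% of all genes higher.

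**Figure D1:**
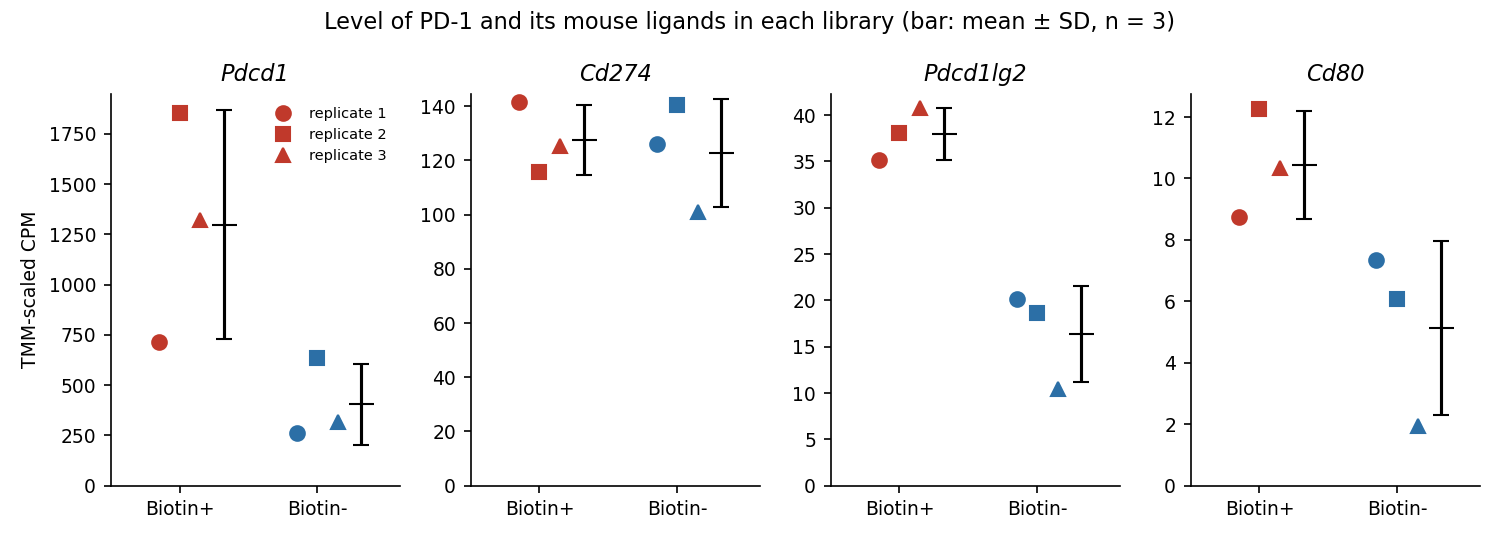
TMM-scaled CPM (y axis, linear from 0) of Pdcd1, Cd274, Pdcd1lg2 and Cd80 in each Biotin+ (left) and Biotin- (right) library, 1 symbol per replicate number, with the mean and SD (n = 3) as a black bar. Biotin+ lies above Biotin- without overlap for Pdcd1, Pdcd1lg2 and Cd80, and the groups overlap for Cd274.

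Cd274, the gene of PD-L1, stood at 142, 116 and 125 CPM in Biotin+ replicates 1 to 3, against 126, 141 and 101 CPM in Biotin- replicates 1 to 3. The groups overlapped, with the highest value in Biotin+ replicate 1 and the lowest in Biotin- replicate 3. The log2 fold change was 0.06 ± 0.20 (SE, adjusted p = 0.901 in edgeR), equal to the median of all tested genes at 2 decimals. The 95% interval of the fold was 0.768 to 1.41, so that a change beyond 1.41-fold up was outside it, while a smaller one was not. Differences between libraries of the same number were 0.17, -0.28 and 0.31 on the log2 scale. Of its 75-base windows 0.451% also occur in transcripts of other genes, against 0 for each of the other 3. Of 9 epithelial and tumour cell markers 7 had any count, with Krt20 and Cldn3 at 0. The list took 0.00207% to 0.0133% of the counts in Biotin+ against 0.00160% to 0.00614% in Biotin-. Cdh1 held most of these counts, 4651 over the 6 libraries, against 468 for Epcam. Krt8, Krt18, Krt19, Cldn4 and Cldn7 held 5, 50, 2, 14 and 11. The shares thus follow Cdh1 above all, at 56.3 CPM on average in Biotin+ against 27.2 CPM in Biotin- with overlapping groups. The part of cells with these markers in the level of Cd274 was not tested. A gene model on the opposite strand overlaps the exons of Cd274 in GENCODE M21. With no strand setting given, whether the reads of the 2 were counted apart is not known.

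Pdcd1lg2, the gene of PD-L2, stood at 35.1, 38.1 and 40.8 CPM in Biotin+ replicates 1 to 3. It stood at 20.1, 18.6 and 10.5 CPM in Biotin- replicates 1 to 3. The groups did not overlap, and the Biotin+ libraries were closer to one another (coefficient of variation 7.43%) than the Biotin- libraries (31.6%). The log2 fold change was 1.21 ± 0.27 (SE, adjusted p = 0.0227 in edgeR), with a 95% interval of the fold from 1.54 to 3.49. The call was lost without Biotin+ replicate 2 (edgeR adjusted p = 0.0658), without Biotin- replicate 2 (0.0551) or without Biotin- replicate 3 (0.0839), in fits that called 0.420%, 0.801% and 0.168% of all genes higher. It rested on 194 to 673 counts per library.

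Cd80, which encodes the shared ligand of CD28 and CTLA-4, was the rarest of the 4, with 162, 196 and 171 counts in Biotin+ replicates 1 to 3 and 151, 111 and 36 counts in Biotin- replicates 1 to 3. In CPM these were 8.74, 12.3 and 10.4 in Biotin+ against 7.35, 6.09 and 1.95 in Biotin-. The groups did not overlap, but Biotin- replicate 3 stood far below the other Biotin- libraries, and Biotin- replicate 1 was close to Biotin+ replicate 1. The log2 fold change was 1.02 ± 0.44 (SE, adjusted p = 0.201 in edgeR), and 0.63 without Biotin- replicate 3. With the replicate number as a block it was 1.17 ± 0.37 and passed (edgeR adjusted p = 0.0376, the lowest of its 16 alternatives, the highest being 0.580). Biotin+ lay wholly above Biotin- in CPM for Pdcd1, Pdcd1lg2 and Cd80, and likewise for 13.4% of all tested genes.

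Cells other than T cells can supply PD-L2 and CD80 transcripts. Macrophage and monocyte markers, all 15 of 15 detected, took 0.217%, 0.131% and 0.0600% of the counts in Biotin+ replicates 1 to 3, against 0.421%, 0.124% and 0.154% in Biotin- replicates 1 to 3. Of the 15, 0 were called in edgeR with the group alone and 0 by the DESeq2 Wald test. An unadjusted p under 0.05 in edgeR was seen for 3. The replicate block called 0 of them higher and 4 lower, beside 5.60% and 12.0% of all tested genes. Dendritic cell and MHC class II markers, 14 of 14 detected, took 0.0640% to 0.154% in Biotin+ against 0.0666% to 0.176% in Biotin-. Of 12 of them tested 0 were called higher and 1 lower, Fscn1, which encodes an actin-bundling protein (61.1 CPM on average in Biotin+ against 123.8 CPM in Biotin-, adjusted p = 0.0304 in edgeR). Fibroblast and endothelial markers were lower in the same Biotin+ libraries, and their part in the level of Fscn1 was not tested. Fscn1 no longer passed without Biotin+ replicate 2 or 3 (edgeR adjusted p = 0.105 and 0.0810) or without Biotin- replicate 1 or 3 (0.0969 and 0.140). With the replicate block 1 of the 12 was called higher and 2 lower, beside the same 5.60% and 12.0% of all tested genes. Ccl22, a chemokine of mature dendritic cells, averaged 14.5 ± 7.66 CPM in Biotin+ against 4.24 ± 5.22 CPM in Biotin- with overlapping groups (SD over 3 libraries, adjusted p = 0.212 in edgeR). It was the one called higher with the block (log2 fold change 2.28, edgeR adjusted p = 0.000524), and it also passed without Biotin- replicate 1 (3.56, edgeR adjusted p = 0.0135). Fscn1 and Ccl22 were picked after their values were seen. B cell markers, 7 of 7 detected, took 0.00424% to 0.00624% in Biotin+ against 0.00590% to 0.01001% in Biotin-. The shares of the macrophage, dendritic cell and B cell lists overlapped between the groups. Within the macrophage list the median log2 fold change was -0.93, and 2 of 15 were positive. These were Ly6c2, abundant at 537 CPM on average in Biotin+ against 329 CPM in Biotin-, and Ccr2. The part of these cells in the levels of Pdcd1lg2 and Cd80 was not tested.

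Per kilobase of exon the 4 genes kept 1 order in every library: Pdcd1, then Cd274, Pdcd1lg2 and Cd80, with no overlap between neighbours within a group. In CPM per kilobase Pdcd1 averaged 672 ± 295 in Biotin+ against 210 ± 104 in Biotin- (SD, n = 3 each). Cd274 averaged 35.2 ± 3.597 in Biotin+ against 33.9 ± 5.51 in Biotin-. Pdcd1lg2 averaged 19.4 ± 1.44 in Biotin+ against 8.37 ± 2.64 in Biotin-. Cd80 averaged 2.82 ± 0.475 in Biotin+ against 1.38 ± 0.763 in Biotin-. Cd274 thus supplied 62.2% to 68.6% of the summed level of the PD-1 ligand transcripts per kilobase in Biotin+, and 77.2% to 83.9% in Biotin-. The level of Pdcd1 over that of the summed ligands was 6.51, 18.7 and 12.4 in Biotin+ replicates 1 to 3 and 3.02, 6.81 and 4.96 in Biotin- replicates 1 to 3, so it was higher in Biotin+ within each number while the groups overlapped.

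**Figure D2:**
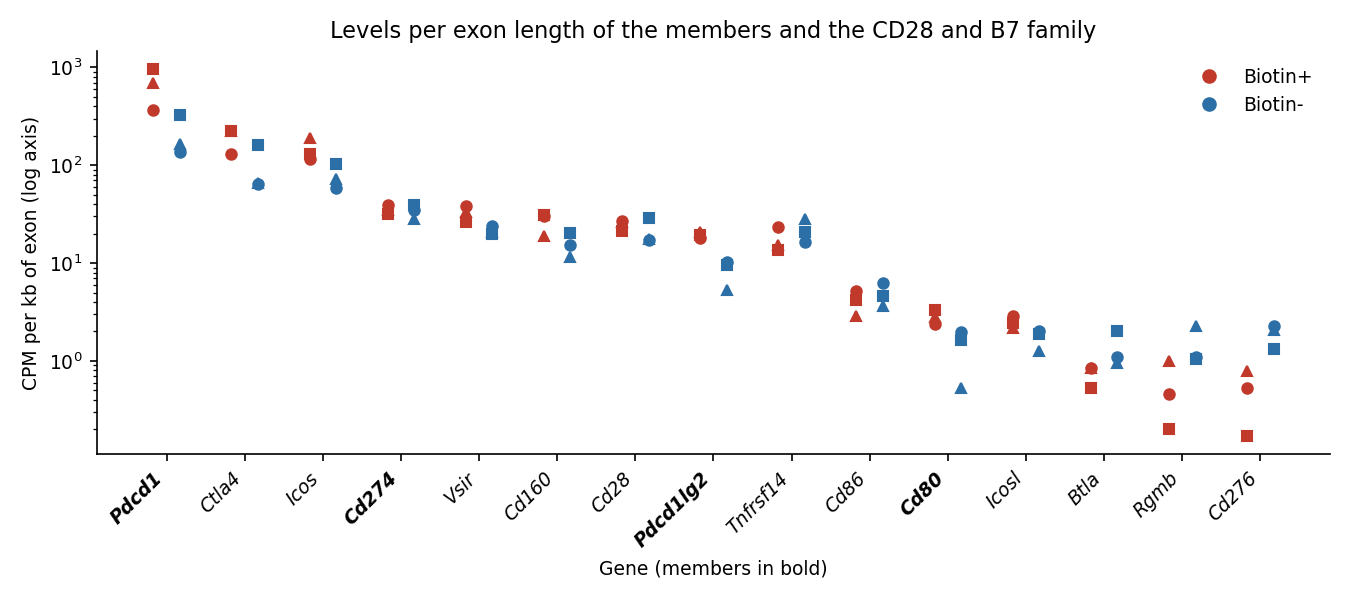
CPM per kilobase of exon (y axis, log) of the 4 genes (bold) and 11 tested genes of the CD28 and B7 family (x axis, in order of the Biotin+ mean), with 1 symbol per library, red for Biotin+ and blue for Biotin-. Pdcd1 is the highest of the family in both groups, and Cd80 is the lowest of the 4 genes.

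A ratio of counts within a library does not depend on how libraries are scaled. The smallest p that an exact permutation test of 3 against 3 libraries allows is 0.1, two-sided, so none of the 8 ratios examined could pass. The log2 ratio of Pdcd1 to Cd274 was 3.25 ± 0.84 in Biotin+ against 1.63 ± 0.56 in Biotin- (SD, n = 3, exact permutation p = 0.1, 0.2 after Benjamini-Hochberg adjustment over the 8 ratios). That of Pdcd1lg2 to Cd274 was -1.74 ± 0.23 in Biotin+ against -2.95 ± 0.31 in Biotin- (SD, n = 3, exact permutation p = 0.1, adjusted 0.2), and that of Cd80 to Cd274 was higher in all 3 Biotin+ libraries too, with a difference of 1.16 and the same exact p. Pdcd1 relative to Pdcd1lg2 differed by 0.42, with overlapping groups (exact permutation p = 0.6, adjusted 0.6).

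The identity genes were higher in Biotin+ themselves, so each gene was also set against their geometric mean. The log2 ratio of Pdcd1 was 0.56, 1.57 and 1.47 in Biotin+ replicates 1 to 3, against -0.19, 0.72 and 0.22 in Biotin- replicates 1 to 3. It was higher in Biotin+ within each number, but Biotin+ replicate 1 lay below Biotin- replicate 2 (difference of means 0.95, exact permutation p = 0.2, adjusted 0.267). For Cd274 the ratio was -1.78, -2.43 and -1.93 in Biotin+ against -1.25, -1.45 and -1.43 in Biotin-, lower in all 3 Biotin+ libraries (difference -0.67, exact permutation p = 0.1, adjusted 0.2). The ratios of Pdcd1lg2 and Cd80 differed by 0.53 and 0.49 with overlapping groups (exact permutation p = 0.2 and 0.5).

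When edgeR's libraries were scaled by the median ratio of the identity genes, the median over all genes shifted by -0.75, to -0.69. Pdcd1 then stood at a log2 fold change of 0.94 ± 0.30 (SE) and passed (edgeR adjusted p = 0.0466). Pdcd1lg2 was at 0.49 ± 0.29 (SE), short of the threshold (edgeR adjusted p = 0.185). Cd274 had -0.66 ± 0.22 (SE, adjusted p = 0.0507 in edgeR), close to the median of all genes in that fit, and with the replicate block added it was called lower at -0.69 ± 0.19 (SE, adjusted p = 0.00863 in edgeR), in a fit that called 55.5% of all tested genes lower and 0.719% higher. The adjusted p of Cd274 ran from 0.00863 to 0.985 over its 16 alternatives. Cd80 had 0.30 ± 0.45 (SE). Library size alone moved the median of all genes to -0.14, and Pdcd1lg2 then had 1.02 ± 0.27 (SE) and missed the threshold (edgeR adjusted p = 0.0551), where Pdcd1 passed (edgeR adjusted p = 0.0414) among 0.629% of all genes called higher.

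**Figure D3:**
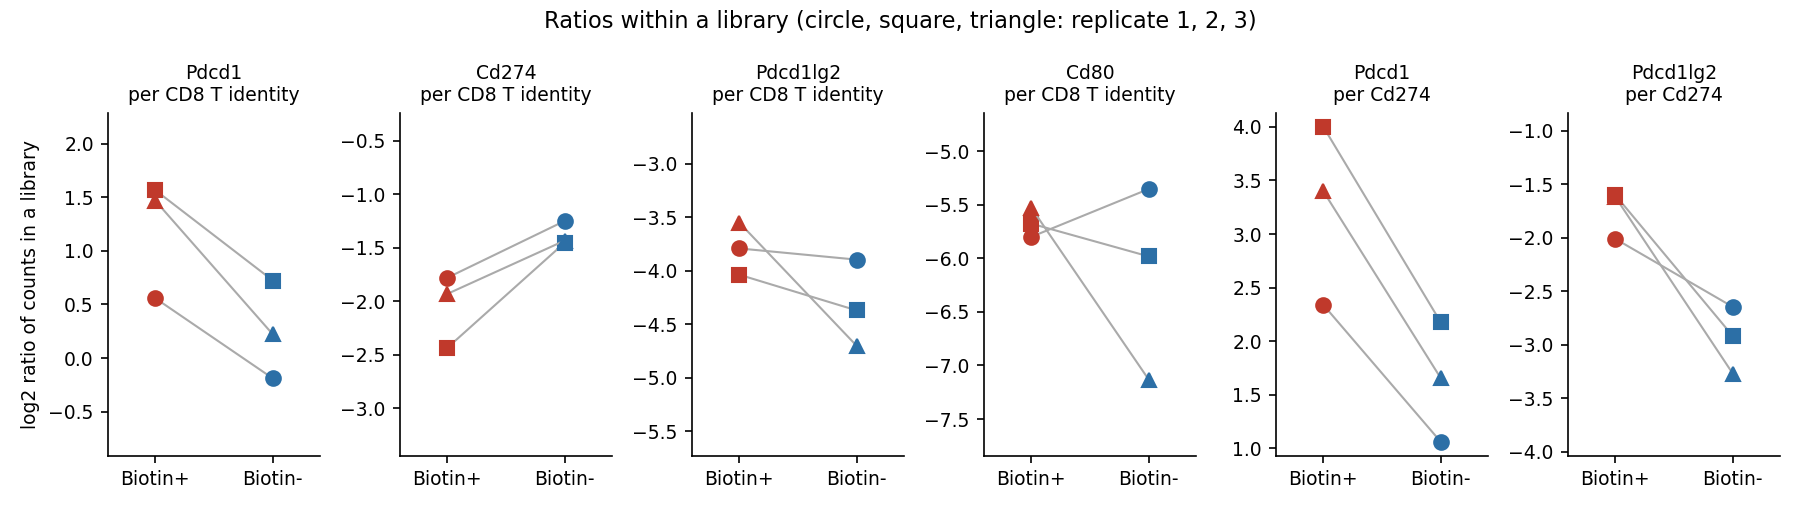
Log2 ratios of counts within a library (y axis, each panel spanning the same range) for Biotin+ (left, red) and Biotin- (right, blue), with a grey line between libraries of the same replicate number. Pdcd1 per identity gene mean falls along all 3 lines from left to right, Cd274 rises along all 3, and the ratios of Pdcd1 and Pdcd1lg2 to Cd274 part the groups.

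**Figure D4:**
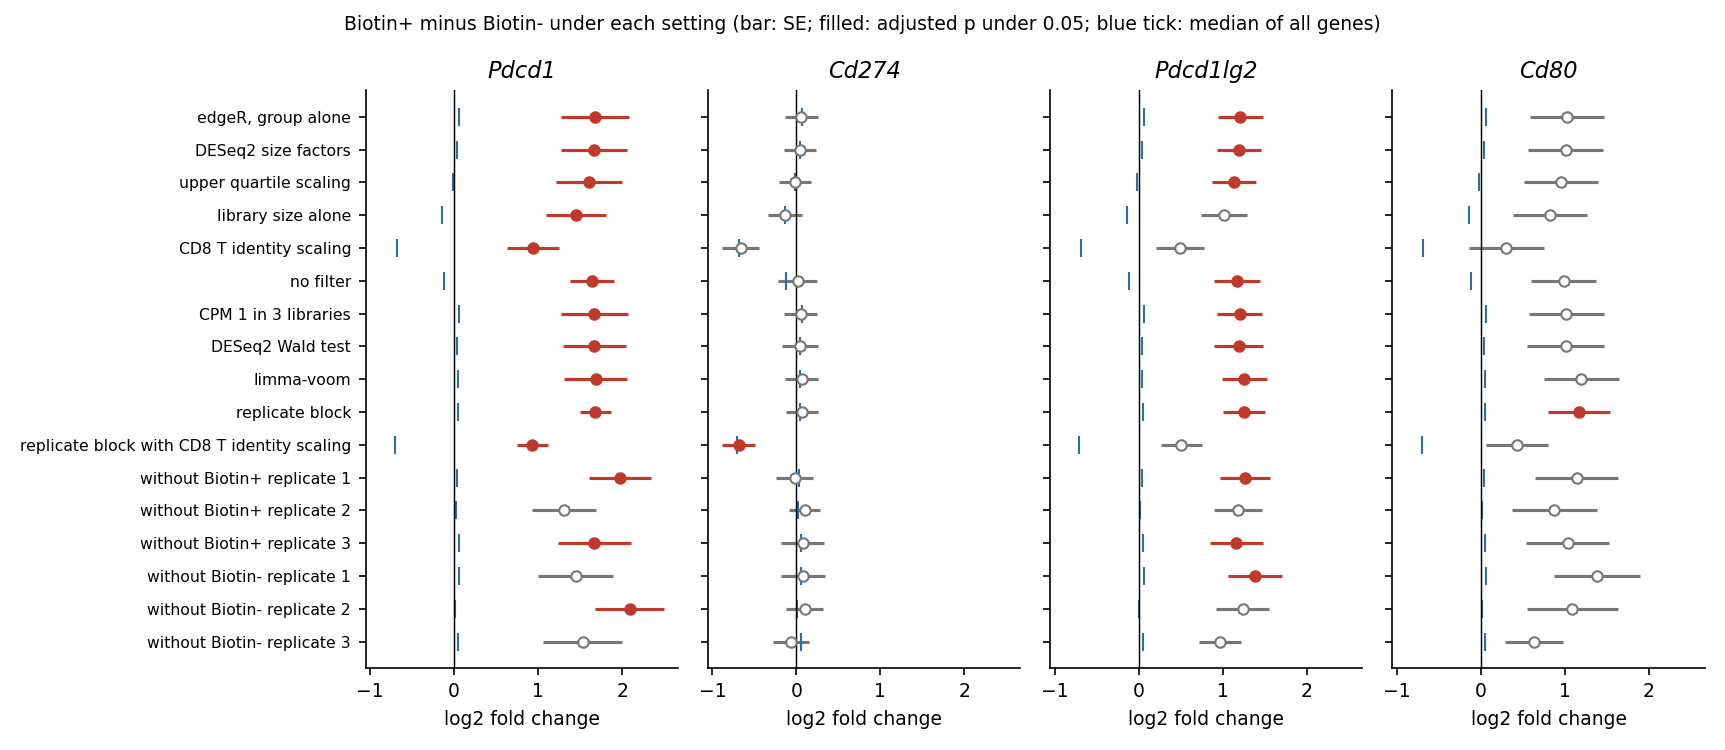
Log2 fold change, Biotin+ minus Biotin- (x axis), of the 4 genes under each setting (rows), with SE bars, filled where the adjusted p is under 0.05, and a blue tick at the median of all genes. Pdcd1 stays right of the tick in every row, and Cd274 stays near it.

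Downstream of PD-1, genes of its signalling and of the T cell receptor pathway it acts on were counted. Of 25 tested, 3 were called higher and 0 lower, with 22 short of the threshold (median log2 fold change 0.37). The 3 were Zap70, the kinase of the receptor complex (582.8 CPM on average in Biotin+ against 271.6 CPM in Biotin-, log2 fold change 1.10 ± 0.22 SE, adjusted p = 0.0161 in edgeR), Pik3cd, the catalytic PI3K subunit of leukocytes (0.92 ± 0.21 SE, adjusted p = 0.0244 in edgeR), and Ptpn6, which encodes the phosphatase SHP-1 (1.01 ± 0.27 SE, adjusted p = 0.0469 in edgeR). With the replicate block 8 were higher and 0 lower, beside 5.60% and 12.0% of all genes, and identity scaling gave 0 higher and 3 lower at a median of -0.38, beside -0.69 for all genes, of which 0.180% were called higher and 26.6% lower. Zap70 is also in the identity list. Ptpn11, which encodes SHP-2, the main phosphatase bound by PD-1, averaged 115 CPM in Biotin+ against 124 CPM in Biotin- (log2 fold change -0.12 ± 0.19 SE, adjusted p = 0.770 in edgeR), and with identity scaling it was called lower at -0.85 (adjusted p = 0.0324). Zap70 lost its call without Biotin- replicate 1 or 3 (edgeR adjusted p = 0.0641 and 0.0878), and Pik3cd without either of these (0.102 and 0.123) or Biotin+ replicate 3 (0.0707). Ptpn6 lost it without Biotin+ replicate 2 or 3 (edgeR adjusted p = 0.131 and 0.0591) or any 1 Biotin- library (0.0544 to 0.191).

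Of 24 transcription factors and chromatin regulators tied to Pdcd1 transcription, 0 were called higher, 1 lower and 23 did not pass (median 0.22). The lower one was Jun, an AP-1 subunit, at 269.7 CPM on average in Biotin+ against 590.2 CPM in Biotin- (log2 fold change -1.13 ± 0.21 SE, adjusted p = 0.0128 in edgeR), and it lost the call without Biotin- replicate 3 (adjusted p = 0.0615). Tox, which encodes a factor of exhausted T cells, averaged 16.9 CPM in Biotin+ against 14.4 CPM in Biotin- (edgeR adjusted p = 0.755). With the replicate block 3 were higher and 3 lower, beside 5.60% and 12.0% of all genes. With identity scaling 0 were higher and 4 lower, beside 0.180% and 26.6% of all genes.

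Genes that induce or stabilise the ligands, among them the interferon receptors, counted 0 higher, 2 lower and 18 not passing out of 20 (median 0.14). Ifngr2, a chain of the interferon gamma receptor, averaged 9.55 CPM in Biotin+ against 21.7 CPM in Biotin- (log2 fold change -1.19 ± 0.25 SE, adjusted p = 0.0180 in edgeR). It no longer passed without Biotin+ replicate 2 (edgeR adjusted p = 0.0506) or Biotin- replicate 1 or 3 (0.0688 and 0.106). Myc, a growth factor-induced transcription factor, averaged 55.8 CPM in Biotin+ against 142.4 CPM in Biotin- (log2 fold change -1.35 ± 0.23 SE, adjusted p = 0.00837 in edgeR). Fibroblast and endothelial markers were lower in the same libraries, and their part in both was not tested. Irf1, a factor that switches on Cd274, had a log2 fold change of -0.40 ± 0.21 (SE, adjusted p = 0.289 in edgeR), and -1.16 with identity scaling (adjusted p = 0.00747). Ifng itself had 0.94 ± 0.41 (SE, adjusted p = 0.203 in edgeR and 0.000983 with the block, 0.0397 without Biotin- replicate 2), and Cmtm6, whose product keeps PD-L1 from degradation, 0.28 ± 0.18 (SE, adjusted p = 0.396 in edgeR). With the replicate block 3 of the 20 were higher and 2 lower, beside 5.60% and 12.0% of all genes. With identity scaling 0 were higher and 6 lower, beside 0.180% and 26.6% of all genes. Of 8 genes of PD-1 protein turnover, such as the ubiquitin ligase genes Fbxo38 and Cblb, 0 passed in edgeR in either direction, 0 also with the block, and 0 had an unadjusted p under 0.05. With identity scaling 0 of the 8 were called higher and 2 lower, and with that and the block 0 higher and 6 lower, beside 26.6% and 55.5% of all genes lower.

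In the wider CD28 and B7 family, 11 of 12 genes were tested, and Vtcn1 had 0 counts in all 6 libraries. None passed in edgeR, 0 higher and 0 lower, while 6 had an unadjusted p under 0.05 and the DESeq2 Wald test called 3, Ctla4 and Icos higher and Cd276 lower (3.53% of all genes higher and 10.4% lower). With the replicate block 4 were higher and 2 lower, beside 5.60% and 12.0% of all genes. Ctla4, which competes with CD28 for CD80, averaged 447 ± 126 CPM in Biotin+ against 226 ± 128 CPM in Biotin- (SD over n = 3; log2 fold change 0.98 ± 0.37 SE, adjusted p = 0.138 in edgeR and 0.00239 with the block, 0.0219 without Biotin- replicate 2). Icos, a costimulatory receptor, averaged 502 ± 137 CPM in Biotin+ against 269.5 ± 78.6 CPM in Biotin- (SD over n = 3; log2 fold change 0.90 ± 0.27 SE, adjusted p = 0.0719 in edgeR and 0.00478 with the block). Cd160, a receptor for HVEM, and Vsir, which encodes VISTA, showed log2 fold changes of 0.77 ± 0.27 and 0.59 ± 0.20 (SE), and both passed with the block (edgeR adjusted p = 0.0114 and 0.0342). Cd28, the target of PD-1 signalling, averaged 152 ± 19.0 CPM in Biotin+ against 129.8 ± 42.0 CPM in Biotin- (SD over n = 3; log2 fold change 0.23 ± 0.24 SE). Under identity scaling 0 of the family were higher and 3 lower (Cd276, Btla and Rgmb), beside 0.180% and 26.6% of all genes. The log2 fold changes of Vsir, Cd28 and Icosl turned negative in that fit (-0.14, -0.47 and -0.18), where the median of all genes was -0.69.

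Other cells of a tumour carry several members of the family. Cd276, which encodes B7-H3 of stromal and tumour cells, averaged 1.82 ± 1.15 CPM in Biotin+ against 6.96 ± 1.84 CPM in Biotin- (SD over n = 3; log2 fold change -1.93 ± 0.53 SE, adjusted p = 0.0505 in edgeR and 0.00173 with the block, 0.0188 without Biotin+ replicate 3). It also passed with upper quartile scaling and with no filter (edgeR adjusted p = 0.0467 and 0.00101), and in limma-voom (adjusted p = 0.0398). It missed the threshold with library size alone (edgeR adjusted p = 0.0664), without any 1 Biotin- library (0.0639 to 0.166) and without Biotin+ replicate 1 or 2 (0.0866 and 0.0880). Rgmb, whose product binds PD-L2, averaged 4.21 ± 3.07 CPM in Biotin+ against 11.2 ± 5.26 CPM in Biotin- (SD over n = 3; log2 fold change -1.41 ± 0.54 SE, adjusted p = 0.145 in edgeR and 0.00271 with the block, 0.0225 without Biotin+ replicate 3). Fibroblast and endothelial marker shares were lower in the same Biotin+ libraries, and their part was not tested. Exons of Cd276, Cd160 and Cd3e overlap gene models on the opposite strand in GENCODE M21. With no strand setting given, whether their reads were counted apart is not known. Cd86, the other ligand of CD28 and CTLA-4 beside Cd80, had a log2 fold change of -0.25 ± 0.30 (SE, adjusted p = 0.673 in edgeR). Icosl, the ICOS ligand, had 0.54 ± 0.30 (SE), Btla, an inhibitory receptor for HVEM, -0.87 ± 0.45 (SE), and Tnfrsf14, which encodes HVEM, -0.32 ± 0.28 (SE), none of them past the threshold in edgeR under TMM scaling with or without the block. With the block and identity scaling Btla and Tnfrsf14 were called lower (edgeR adjusted p = 0.00911 and 0.00507), as were 55.5% of all tested genes in that fit.

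**Figure D5:**
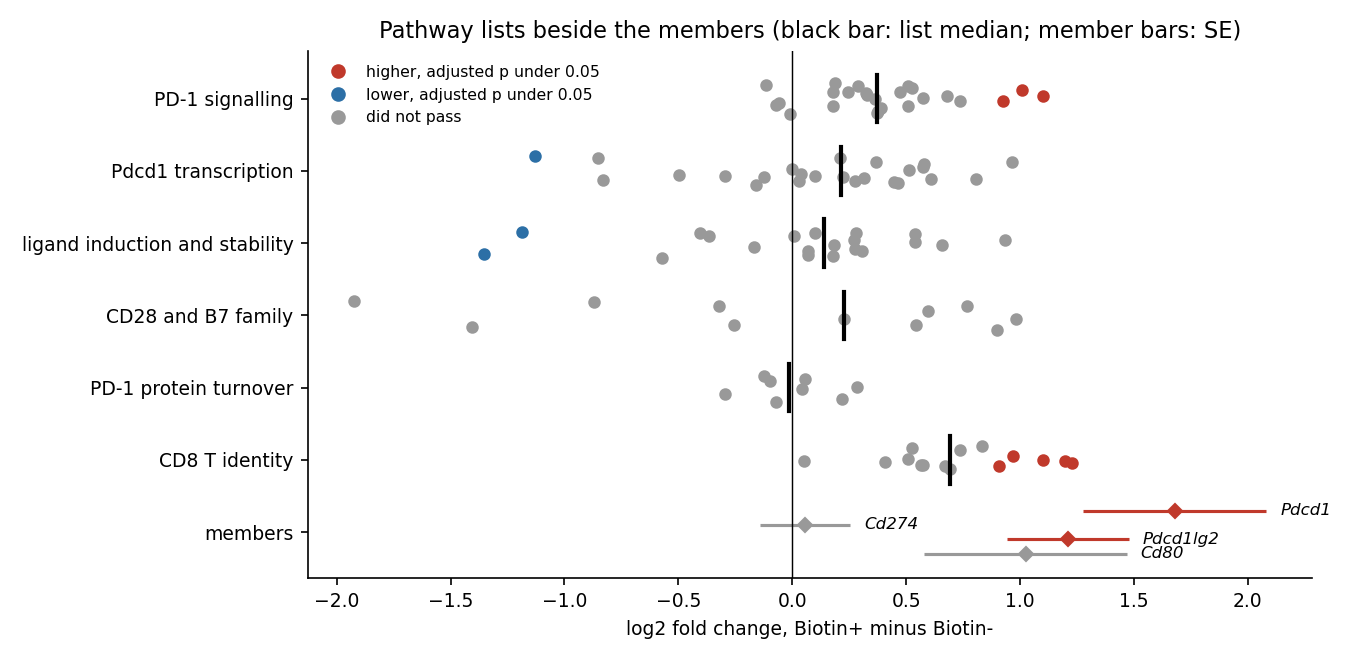
Log2 fold change, Biotin+ minus Biotin- (x axis), of each tested gene in 6 lists (rows, grey where it did not pass) with the list median as a black bar, and the 4 genes below with SE bars. Pdcd1 lies right of every gene of the 6 lists, and Cd274 lies near 0.

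The genes most like each of the 4 in pattern were named by the root mean square difference between centred log2 CPM over the 6 libraries, which is a description and needs no test. Among 8436 genes with a mean of at least 10 CPM, those nearest to Pdcd1 were Adgrg1 (difference 0.197), an adhesion receptor of cytotoxic lymphocytes, Styk1 (0.247), a kinase-like membrane protein, the granzyme gene Gzmb (0.248), St14 (0.2996), which encodes the membrane protease matriptase, and Slc17a6 (0.324), a glutamate transporter (adjusted p = 0.153 in edgeR and 0.00293 with the replicate block, 0.0491 without Biotin+ replicate 1), where the median candidate was at 0.983. Pdcd1lg2 was nearest to Entpd1 (0.0591), which encodes the ectonucleotidase CD39, Padi2 (0.140), a protein-arginine deiminase, and Slco4a1 (0.162), an organic anion transporter (adjusted p = 0.111 in edgeR and 0.0308 with the replicate block). Nearest to Cd274 were Naa50, Polr2b and Akirin1, a protein acetyltransferase, an RNA polymerase II subunit and a nuclear cofactor, at 0.0324 to 0.0427. Near to Cd80 were Rnf113a1 (0.253), a ring finger protein, and Slco4a1 (0.261). Among the 4 genes themselves Pdcd1lg2 and Cd80 were the closest pair (0.318), and Pdcd1 and Cd274 the farthest apart (0.997).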

How the data were processed

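Poly-A RNA of 6 samples was analysed, grouped and numbered by their titles. Values are whole-number counts as the authors deposited them, 1 column for each sample, with gene symbols as row names. Trim Galore 0.6.7, STAR 2.7.10a, Picard 1.14, featureCounts 2.0.1 and GRCm39 appear in the submitters' processing notes; their roles do not. Annotation, strandedness and multi-mapping rules: not given in the sources used here.

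Counts were tested with edgeR 4.0.16 in R 4.3.3 (filterByExpr, TMM, robust dispersion and glmQLFit, group alone). The common biological coefficient of variation was 0.311. SE is the log2 fold change over the root of F. Replicates within a group were distinct libraries, with chi-square over its degrees of freedom at 38.7 to 111.6 for each pair. Exact permutation tests used scipy 1.17.1. Levels per kilobase and 75-base windows used GENCODE M21 on GRCm38, promoters RefSeq on GRCm38.p6, both another build than the counts, matched by symbol (4 of 4). The protocols name no molecular identifiers, and true error exceeds counting error.

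The 4 genes, the lists and the tests were chosen with earlier results of these data known. Named genes are the 4, the CD28 and B7 family, up to 4 called genes of each other pathway list, Tox, Ifng, Ptpn11, Ptpn6, Irf1, Cmtm6, Cd8a, Cd3e, the genes most like each of the 4 (candidates at a mean of at least 10 CPM for Pdcd1, and of 31.3, 6.80 and 1.95 CPM for Cd274, Pdcd1lg2 and Cd80, without predicted models and receptor segments) and tested neighbours on the chromosome. A few genes under this rule are left out of the text.

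Both groups carry numbers 1 to 3. Deviations of log2 CPM (prior count 1) from the group means correlated across genes at 0.343, 0.254 and 0.375 for same-numbered libraries and at -0.0618 to -0.262 for others. Deviations within a group cancel out, so these correlations are not independent of one another. A pairing is thus read from the data and not from the labels. The main edgeR test and the exact permutation tests used the group alone, and the pairing entered only as the replicate block. Alternatives were 4 other scalings, 2 filters, the DESeq2 1.42.0 Wald test, limma-voom (limma 3.58.1), the replicate block with TMM or identity scaling, and leaving out each library. Ratios to Cd274 or Pdcd1lg2 were added after the data were seen.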

Additional observations from a re-analysis of the deposited data

How the results depend on the processing

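Over 16 alternatives Pdcd1 stayed higher, with a log2 fold change of 0.93 to 2.09, and 13 kept its call. Leaving out 1 library gave 1.31 to 2.09. Pdcd1lg2 stayed higher (0.97 to 1.39 without 1 library) but missed the threshold with library size alone (1.02), identity scaling (0.49) and identity scaling with the replicate block (0.51). Cd274 changed sign with upper quartile scaling (-0.019), library size alone (-0.13), identity scaling (-0.66) and identity scaling with the block (-0.69), and ran from -0.067 without Biotin- replicate 3 (-0.022 without Biotin+ replicate 1) to 0.098 without Biotin+ replicate 2. Cd80 passed with the replicate block (1.17) alone, and without 1 library had 0.63 to 1.38. The count of genes higher, 205, was 84 with library size alone, 24 with identity scaling, 96 with that and the block, 396 with no filter, 471 by DESeq2, 748 with the replicate block, and 23 to 200 without 1 library. The count lower, 898, was 3558 with identity scaling, 7410 with that and the block, 1495 with no filter, 1389 by DESeq2, 1599 with the replicate block, and 239 to 1044 without 1 library. Of the 4 genes the block changed the call of Cd80 alone. Of 31 other named genes that did not pass, 9 passed with it, and it changed no call of the 14 that did. Identity scaling brought 5 of the 31 past the threshold with the sign kept and turned the sign of 14. Ratios kept their sign without each library, except Cd80 per identity mean (-0.00073 to 0.89) and Pdcd1 per Pdcd1lg2 (-0.018 to 0.74). The cause of these shifts was not tested. Of the 14 other named genes that passed, 10 missed the threshold with identity scaling and 4 with library size alone, with no change of sign. Depth limits Cd80 most, with 36 counts in its lowest library.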

Other observations

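The tested genes beside each of the 4 on its chromosome, in RefSeq order on GRCm38.p6, did not pass in edgeR. Next to Pdcd1 on chromosome 1, D2hgdh, a metabolic dehydrogenase, had a log2 fold change of 0.13 ± 0.30 (SE, adjusted p = 0.849 in edgeR) and Fam174a of 0.09 ± 0.22 (SE, adjusted p = 0.850 in edgeR). Before Cd274 on chromosome 19, Plgrkt, a plasminogen receptor, had 0.43 ± 0.22 (SE, adjusted p = 0.287 in edgeR). The gene models Gm36043, between Cd274 and Pdcd1lg2, and A930007I19Rik, after Pdcd1lg2, averaged 1.49 and 0.629 CPM in Biotin+ against 2.13 and 0.670 CPM in Biotin-. Beside Cd80 on chromosome 16, Adprh, an ADP-ribose hydrolase, had 0.40 ± 0.21 (SE, adjusted p = 0.299 in edgeR) and Timmdc1, a mitochondrial assembly factor, 0.26 ± 0.28 (SE, adjusted p = 0.631 in edgeR).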
